A study of Rattus norvegicus with 16 samples.

Results

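The miR-466 family of the rat comprises the small RNAs that are cut from 4 precursor genes, Mir466b-1, Mir466b-2, Mir466c and Mir466d. Its members were taken as every miRNA of the array whose name begins with rno-miR-466, which gave 6 of 677: rno-miR-466b, rno-miR-466b-1*, rno-miR-466b-2*, rno-miR-466c, rno-miR-466c* and rno-miR-466d. They are written below without the species prefix. A star marks the product of the opposite arm of the same hairpin. The family was selected on its detection and its levels on the arrays of each strain. Its shared variation between arrays and its closeness to the detection floor also entered the choice. Strain values and correlations are therefore given as a description, with no test. Tests were run on sex, which the choice did not use.

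The arrays measured total RNA from hearts of 16 rat pups aged 2 days, 8 of the HHR strain (Hypertrophic Heart Rat, bred with polygenic cardiac enlargement) and 8 of the NHR strain (Normal Heart Rat, the age-matched comparison). Each strain gave 4 females and 4 males, killed with pentobarbitone and given no other agent named in the labels, with 100 ng of RNA and 1 one-colour array per pup and no pooling. The labels give the tissue both as the whole heart and as ventricles without atria. The strain comparison covers all differences between the strains, not 1 locus.

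A miRNA is processed from a hairpin precursor, and bases 2 to 8 of the mature strand, the seed, pair with target messenger RNAs. The miR-466 genes are rodent repeat-derived miRNA genes hosted by Sfmbt2, which encodes a Polycomb-group protein. In the mouse the host gene is imprinted and its miRNA cluster is known above all from trophoblast and embryonic stem cells rather than from the heart.

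The mature sequences are shown because both arms carry short alternating repeats. They are from RefSeq (GRCr8), 5′ to 3′, with the seed in capitals.
miR-466b: uAUGUGUGuguguauguccaug
miR-466c: uGUGAUGUguguauguacaug
miR-466d: aUGUGUGUguauguucuuuugu
miR-466b-1*: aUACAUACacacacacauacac
miR-466b-2*: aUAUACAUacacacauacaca
miR-466c*: uAUACAUGcacacauacacac
The first 3 are rich in alternating G and U and the last 3 in alternating A and C. No seed was shared between members, and no other matched miRNA of the array had the seed of a member. miR-466b and miR-466c were 4 edits apart, and miR-466b and miR-466d shared a stretch of 13 bases. On the other arm miR-466b-1* and miR-466b-2* were 4 edits apart, and miR-466b-2* and miR-466c* were 3 edits apart. The files hold no probe sequences, so signal from near-identical members could not be assigned to 1 of them with certainty. The precursor of miR-466d was the only hairpin of the family with a RefSeq sequence here, and it is printed with its mature product in capitals to show the GU-rich arm facing a CA-rich one.
Mir466d: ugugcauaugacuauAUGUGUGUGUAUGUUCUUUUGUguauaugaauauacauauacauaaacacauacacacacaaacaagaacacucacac

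All 4 precursor genes lay within Sfmbt2 and on its strand in GRCr8. Sfmbt2 occupied chr17:72844037-73038599 on the minus strand, 194.6 kb in length. In the direction of transcription came Mir466b-1 (chr17:72945493-72945578), Mir466b-2 (chr17:72942463-72942544), Mir466c (chr17:72927601-72927679) and Mir466d (chr17:72913004-72913096), from 93.0 to 125.5 kb after the start of Sfmbt2. The gaps between them were 2.9, 14.8 and 14.5 kb, and the whole cluster spanned 32.6 kb. These 4 were the only miRNA genes inside Sfmbt2 in this annotation. The mature sequence of miR-466b is encoded by both Mir466b-1 and Mir466b-2, so its signal cannot be divided between the genes. The annotation used here lists genes without exons, so the position within an intron was not checked.

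Each miRNA was measured by 20 spots per array, spread over 2 probes for miR-466b, miR-466b-2*, miR-466c* and miR-466d and over 4 for miR-466b-1* and miR-466c. Levels are background-subtracted intensities on a linear scale, scaled between arrays to a common 75th percentile. A member counted as well above background on an array where most spots of at least 1 of its probes carried the scanner software's flag for it. The lowest scaled level of any probe with that flag ranged from 10.13 to 18.71 over the arrays (median 12.57). Before scaling, the HHR arrays were bright (75th percentile 417.7 to 525.2), while 5 NHR arrays were dim (294.7 to 326.8) and 3, NHR female 3, NHR male 2 and NHR male 4, were as bright as HHR arrays. Of the miRNAs known as heart muscle markers, 5 of 6 were detected on all 16 arrays and miR-208 on none. Of 3 neural markers none was detected on any array. No spot of a member was saturated, and precision is limited by the number of arrays.

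miR-466b, the product of the 5′ arm of both Mir466b hairpins, was detected mainly in NHR hearts. It was well above background on 6 of 8 NHR arrays and on 0 of 8 HHR arrays. In HHR females its scaled level was 1.52, 8.77, 9.02 and 4.43 on arrays 1 to 4. In HHR males it was 2.46, 1.87, 2.89 and 2.65. In NHR females it was 17.7, 8.82, 16.5 and 25.5, and in NHR males 13.4, 27.9, 10.8 and 11.7. The HHR males were the lowest group and the most even one, HHR females 2 and 3 reached the lower edge of the NHR values, and NHR male 2 and NHR female 4 were highest. The strains overlapped in 1 place, since HHR female 3 lay just above NHR female 2. The SE of a single array's mean over its spots was 0.793 on average in HHR and 1.29 in NHR (unscaled signals), so the order among the HHR males, or of HHR female 3 and NHR female 2, lies within the spot error.

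**Figure D1:**
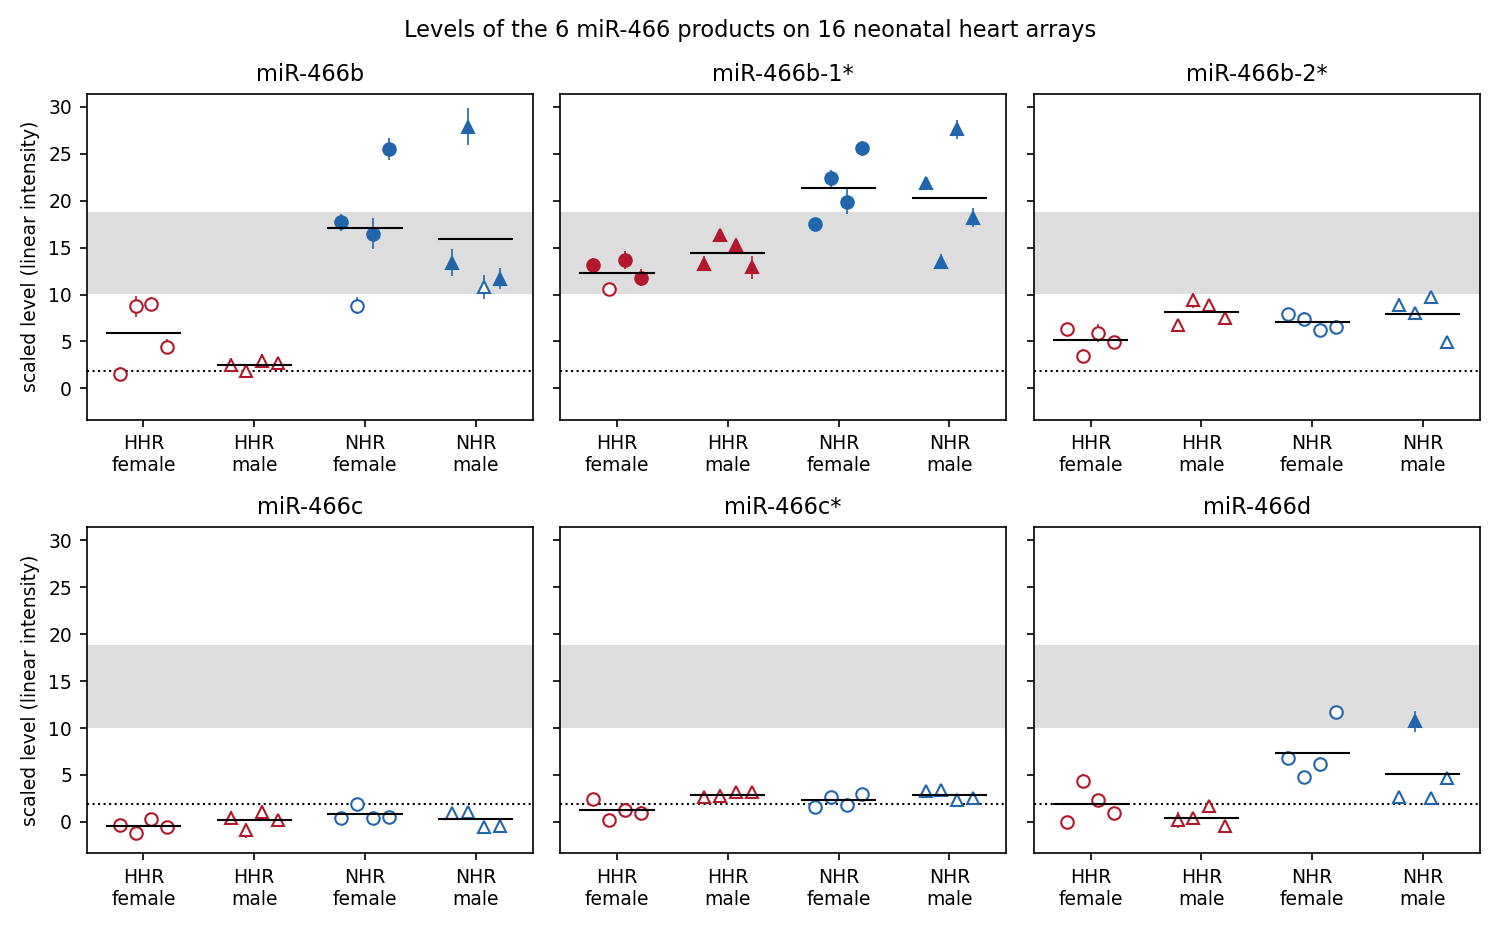
Scaled level (linear intensity) of each miR-466 product on each of the 16 arrays, by strain and sex; circles are females, triangles males, filled symbols arrays where the product was well above background, vertical lines the SE over the spots and black bars the group means. The grey band runs from 10.13 to 18.71, the range of the dimmest probe well above background on each array, and the dotted line is the floor of 1.88; for miR-466b, filled symbols appear on 6 NHR arrays and no HHR array.

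The mean level of miR-466b was 4.20 ± 3.02 in HHR and 16.5 ± 6.95 in NHR (± SD, n = 8 per strain). On the log2 scale, with values under the floor of 1.88 raised to it on 2 HHR arrays, HHR was lower by 2.13 (difference -2.13 ± 0.33, SE). The median of this strain difference over all 233 miRNAs detected on at least 4 arrays was -0.106. Because no HHR array measured miR-466b well above background, the size is better given as a bound. The NHR mean was at least 1.24-fold higher than the lowest level measurable as well above background on HHR arrays. Complete separation of the strains with HHR lower, which 11.2% of tested miRNAs showed (26 of 233), was not reached by any of the 3 tested members, and none was completely higher in HHR, as 3% were.

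The groups ordered as NHR females (17.2 ± 6.84, SD, n = 4), NHR males (15.9 ± 8.06), HHR females (5.94 ± 3.62) and HHR males (2.47 ± 0.433). The first 2 overlapped widely. HHR females 2, 3 and 4 lay above all HHR males, and HHR female 1 lay below them. NHR males and HHR females did not overlap, with 10.8 the lowest of the former and 9.02 the highest of the latter.

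The calls and levels of miR-466b on each array are built from its single spots, so the spot and probe values that follow are not independent of them. The flag for well above background was carried by 3 of 160 spots on HHR arrays (1.88%) and by 75 of 160 on NHR arrays (46.9%). Each probe showed the strain difference alone, with means of 2.27 ± 2.82 in HHR and 11.2 ± 6.86 in NHR for the first probe, and 6.14 ± 3.39 and 21.9 ± 7.39 for the second (SD, n = 8 each). The log2 difference was -1.87 from the first probe and -1.94 from the second. Most spots of the first probe were well above background on 2 NHR arrays and those of the second on 6, and on no HHR array for either.

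The difference was seen on both slides, each of which held 2 arrays of every group. It was -2.39 within slide 1 and -1.86 within slide 2. Among the 11 bright arrays, 8 HHR and 3 NHR, it was -2.30 ± 0.51 (SE), and -2.26 ± 0.43 with array brightness as a covariate. The 3 NHR arrays include NHR male 2, which had the highest miR-466b level. Without scaling between arrays the difference was -1.82. The size of the difference was under 1.5 on the log2 scale with 3 settings. The value was -0.97 with a floor 4 times higher and -0.20 in the authors' deposited table of log2 values. With a normexp background, which here added an offset of 50 to every signal, the value was -0.47.

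Measured by detection alone, miR-466b stood at one end of the array. It was the only miRNA of the 677 (0.148%) that was well above background on at least 6 more NHR than HHR arrays. The count was the same, 0.148%, with the gene-level detection flag of the scanner software, which miR-466b carried on 2 HHR arrays (females 2 and 3) and all 8 NHR arrays. The miRNAs next in line were miR-3584-5p and miR-188, each well above background on 0 HHR and 5 NHR arrays, then miR-211* and miR-192 on 0 and 4, and miR-32* on 0 and 3. As these counts are the basis on which the family was chosen, they carry no test.

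The summed levels of some cell-type markers did not overlap between the strains. The summed level of the endothelial pair miR-126 and miR-126* was 964.4 to 1076.6 on HHR arrays and 1157.2 to 1271.5 on NHR arrays, with both detected on all arrays. For the smooth muscle pair miR-143 and miR-145, also detected on all arrays, the sums were 1264.8 to 1336.0 and 1392.0 to 1477.2. Of the liver pair, miR-122 was detected on no array, and the sum, from miR-192 in the main, was 6.49 to 8.50 in HHR and 11.3 to 14.3 in NHR. Heart muscle, fibroblast, erythroid and leukocyte sums overlapped between the strains. Among all tested miRNAs taken singly, 11.2% (26 of 233) separated completely with HHR lower, and the median log2 difference was -0.106. Sums and single miRNAs are unlike measures, so whether separation was more frequent among markers was not tested. The part of the marker differences in the miR-466b difference was not tested. In whole tissue, fewer cells of a type and less RNA per cell cannot be told apart.

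miR-466d, from the last gene of the cluster, followed miR-466b at lower signal against background. It was well above background on NHR male 2 alone, and carried the gene-level flag on that array and NHR female 4. In HHR its scaled level ran from -0.474 to 4.35 with a median of 0.663, and in NHR from 2.54 to 11.7 with a median of 5.47. Of the 8 HHR arrays 7 lay below the lowest NHR array, the exception being HHR female 2. On 6 HHR arrays and no NHR array its level was under the floor. The mean was 1.18 ± 1.59 in HHR and 6.25 ± 3.40 in NHR (± SD, n = 8 per strain). The log2 difference of -1.34 depended on the floor, reaching -0.14 with one 4 times higher and -2.49 with one 4 times lower, and no fold is given because NHR as a whole also stayed under the lowest level measured as well above background. miR-466d was detected on too few arrays to be tested.

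miR-466c, from the third gene, was under the floor on all 16 arrays. Its levels ran from -1.15 to 1.00 in HHR and from -0.540 to 1.87 in NHR, within the range of the negative control spots, whose 95th percentile was 4.26 to 6.67 over the arrays. None of its 320 spots was well above background, so no strain comparison could be made for it.

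The 3′ arms, which carry the CA repeats, behaved differently from miR-466b. miR-466b-1*, cut from Mir466b-1, was detected in both strains, well above background on 7 HHR and 8 NHR arrays. Its level in HHR females was 13.2, 10.6, 13.7 and 11.8 on arrays 1 to 4, and in HHR males 13.3, 16.3, 15.3 and 12.9. In NHR females it was 17.5, 22.4, 19.9 and 25.6, and in NHR males 21.9, 13.5, 27.6 and 18.2. NHR arrays were higher apart from NHR male 2, which fell among the HHR values, although that array had the highest miR-466b of all. The mean was 13.4 ± 1.80 in HHR and 20.8 ± 4.55 in NHR (± SD, n = 8 per strain), a log2 difference of -0.62 ± 0.13 (SE). All 4 probes gave a negative difference, from -0.69 to -0.54.

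The miR-466b-1* difference moved with the brightness of the arrays. Over all 16 arrays the scaled level had r = -0.809 with array brightness, and over the 8 NHR arrays r = -0.693. Brightness is the divisor of the scaled level, so a steady signal gives a negative r by construction. The unscaled level had r = -0.136 over all 16 arrays and 0.385 over the 8 NHR arrays. Unscaled means were 15.0 in HHR and 18.3 in NHR. The log2 difference was -0.28 without scaling, -0.37 with brightness as a covariate and -0.41 among the bright arrays. The part of brightness in this difference was not otherwise tested.

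miR-466b-2*, cut from Mir466b-2, was well above background on no array. Its level was 6.36, 3.41, 5.94 and 4.99 in HHR females and 6.73, 9.39, 8.92 and 7.55 in HHR males. In NHR females it was 7.91, 7.41, 6.23 and 6.53, and in NHR males 8.93, 8.04, 9.76 and 4.93. The strains overlapped almost completely, with means of 6.66 ± 1.98 in HHR and 7.47 ± 1.55 in NHR (± SD, n = 8 per strain). The log2 difference of -0.20 ± 0.15 (SE) turned to 0.14 without scaling and to 0.076 with quantile normalization, so no direction is given. miR-466c*, the opposite arm of miR-466c, reached 0.218 to 3.17 in HHR and 1.62 to 3.37 in NHR. It was below the 95th percentile of the negative controls on all 16 arrays.

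**Figure D2:**
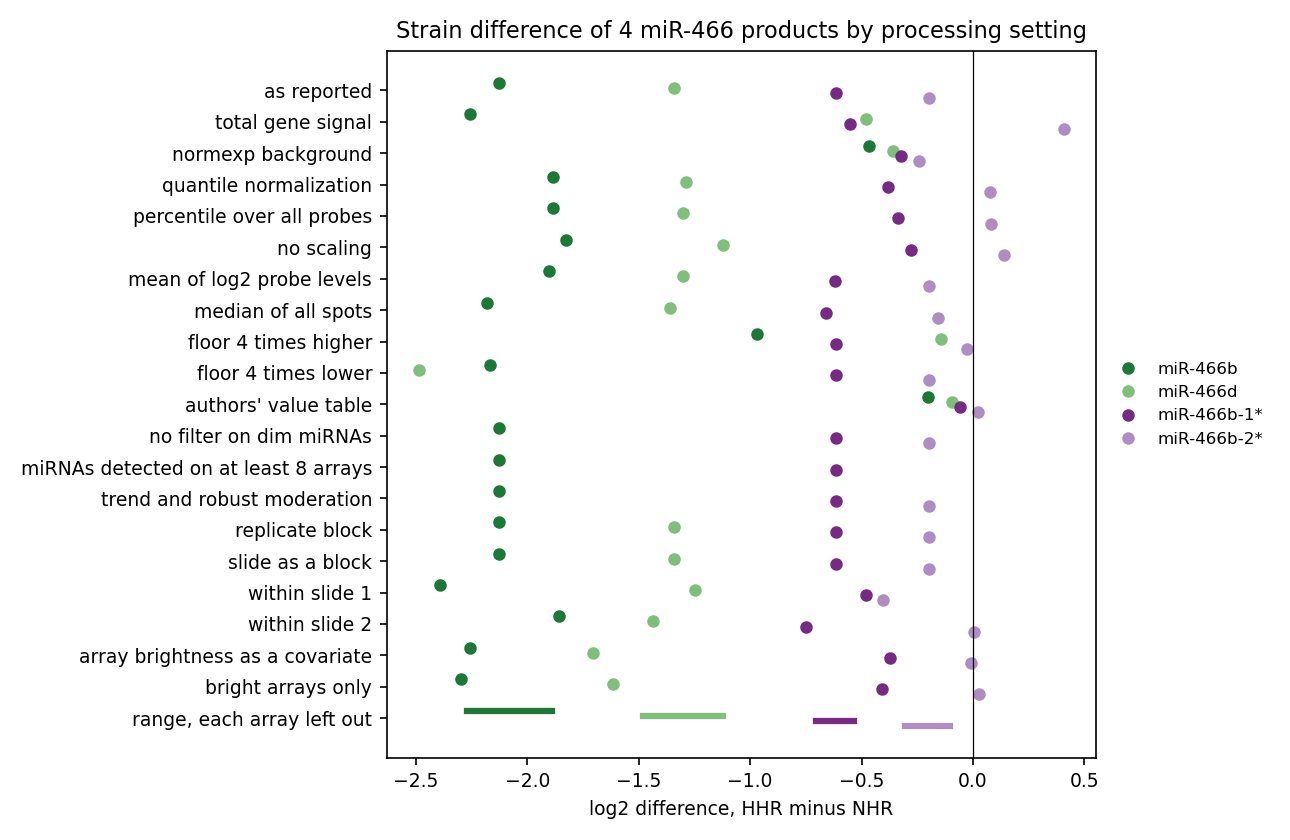
Log2 difference between the strains (HHR minus NHR, horizontal axis) for 4 miR-466 products under each processing setting (vertical axis); points are fitted values and the bars in the last line the range when each array is left out in turn. miR-466b stays below 0 throughout and is smallest, at -0.20, in the authors' table, while miR-466b-2* lies on both sides of 0.

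Across the individual hearts miR-466b and miR-466d varied together inside each strain, with r = 0.857 over the 8 HHR arrays and 0.916 over the 8 NHR arrays, and r = 0.926 over 16 arrays after subtracting the mean of each of the 4 groups. HHR females 2 and 3 were the highest of their strain for both, as were NHR male 2 and NHR female 4 of theirs. In HHR, miR-466d was under the floor on 6 arrays and above the 95th percentile of the negative controls on none. With log2 levels, which apply the floor, r of miR-466b with miR-466d after subtracting group means was 0.712. In contrast, miR-466b and miR-466b-1* had r = -0.510 in HHR and -0.385 in NHR, although 1 hairpin, Mir466b-1, encodes both. miR-466b and miR-466b-2*, which share the hairpin of Mir466b-2, had r = -0.687 and -0.085. The points share labelling reaction, slide and scaling factor, and unscaled levels gave r = 0.950 after subtracting group means for miR-466b with miR-466d, -0.039 with miR-466b-1* and 0.365 with miR-466b-2*. With unscaled log2 levels, the values for miR-466b-1* and miR-466b-2* were -0.198 and -0.101. The sign of the pair with miR-466b-2* thus depended on the scale. That of the pair with miR-466b-1* stayed negative, though small with unscaled linear levels. miR-466c, under the floor throughout, had r of 0.109 with miR-466b and 0.076 with miR-466d after subtracting group means, and 0.555 with miR-466c*.

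The 3 CA-rich members resembled each other in HHR. There miR-466b-1* and miR-466b-2* had r = 0.934, miR-466b-2* and miR-466c* 0.899, and miR-466b-1* and miR-466c* 0.728 over 8 arrays. In NHR the same pairs had r = 0.298, 0.148 and -0.017. The HHR values include a sex difference, as all HHR males lay above all HHR females for miR-466b-2* and miR-466c*. Over 16 arrays after subtracting group means, the pairs had r = 0.439, 0.322 and 0.143. Whether the strains differ in this was not tested. miR-466c* lay below the 95th percentile of single negative control spots on all 16 arrays, though its level is a mean over spots.

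The miRNAs most like miR-466b over the 16 arrays, by Pearson's r of log2 levels among the 232 other tested miRNAs, were miR-32* (r = 0.954), miR-672 (0.942), miR-3588 (0.922), miR-500 (0.883) and miR-362* (0.845). These values include the strain difference. After subtracting group means the order was miR-672 (r = 0.894), miR-206 (0.873), miR-32* (0.860), miR-3588 (0.717) and miR-500 (0.668), with miR-362* at 0.336. The median over all 232 was 0.088, with 5th and 95th percentiles of -0.344 and 0.444. miR-466b-1* (-0.376) and miR-466b-2* (-0.293) ranked 224 and 217.

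**Figure D3:**
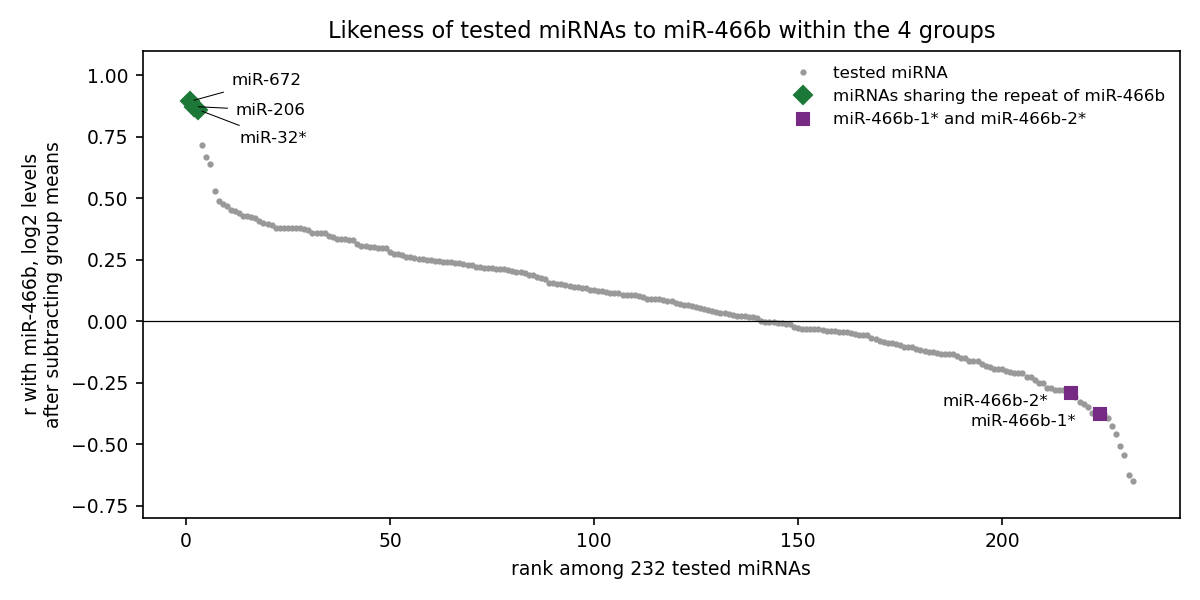
Pearson's r of log2 levels with miR-466b over 16 arrays after subtracting the mean of each of the 4 groups (vertical axis) for 232 tested miRNAs in order of r (horizontal axis). miR-672, miR-206 and miR-32*, the tested miRNAs found to share the alternating repeat of miR-466b, hold ranks 1 to 3, and the 2 opposite-arm products of the Mir466b hairpins rank 217 and 224.

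The miRNAs at ranks 1 to 3 have in common with miR-466b a run of alternating G and U, which is why their sequences are shown, with the run in capitals (RefSeq, GRCr8).
miR-466b: uaUGUGUGUGUGUauguccaug
miR-466d: aUGUGUGUGUauguucuuuugu
miR-32*: gcaauuuaGUGUGUGUGauauu
miR-672: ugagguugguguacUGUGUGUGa
miR-466c: ugugaUGUGUGUauguacaug
miR-206: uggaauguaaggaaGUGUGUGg
The run is 11 bases long in miR-466b, 9 in miR-466d and miR-32*, 8 in miR-672 and 7 in miR-466c and miR-206. Among 575 distinct RefSeq sequences for the 594 array names that could be matched, a run of at least 8 bases occurred in 4 (0.696%) and one of at least 7 in 6 (1.04%), which are those shown. The other 83 names found no match and were not searched. The array names do not state the arm of miR-32*, miR-672 and miR-206, and the sequences shown are the products known under those names, the 3′ arm of Mir32, the 5′ arm of Mir672 and the 3′ arm of Mir206. The length of 7 was chosen after the likeness values were seen, since miR-206 has no longer run. The genes of the 3 non-members lie on other chromosomes, Mir32 on chromosome 5, Mir672 on X and Mir206 on 9, and each has its run outside the seed, near the middle or the 3′ end. miR-3588 and miR-500, at ranks 4 and 5, hold no run of 7. An alternating run of A and C of at least 7 bases occurred in 3 of the sequences. They were miR-466b-1* (11 bases), miR-466b-2* (7) and 1 non-member, miR-672* (7), the opposite arm of Mir672, which was detected on 0 of 16 arrays.

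The values of these 3 followed miR-466b array by array. miR-32* had r = 0.929 with it in HHR and 0.984 in NHR, miR-672 had 0.926 and 0.974, and miR-206, the skeletal muscle relative of the heart's miR-1, had 0.955 and 0.921 (8 arrays each, scaled levels). Without the 2 arrays farthest from the median of miR-466b, r over the other 14 was 0.961 for miR-32*, 0.968 for miR-672, 0.893 for miR-466d and 0.529 for miR-206. Group means were not subtracted here, so these values include the strain difference. HHR females 2 and 3 were again the 2 highest HHR arrays for all 3, and NHR female 4 and NHR male 2 the 2 highest NHR arrays. In HHR the gene-level flag was set on 2 arrays for miR-466b, 1 for miR-32*, 2 for miR-206 and 8 for miR-672. miR-206 was well above background on 0 of 16 arrays. The HHR values of r thus rest on miR-466b signals that were mostly near background. The strain means of miR-206 were the closest of the 3, at 3.45 ± 2.16 in HHR and 5.33 ± 3.50 in NHR (SD over 8 arrays), and the gene-level flag was set on 2 arrays of either strain. The means were 4.01 ± 2.93 and 14.0 ± 7.43 for miR-32*, and 11.8 ± 2.25 and 21.4 ± 6.65 for miR-672. Unscaled levels gave r after subtracting group means of 0.981 for miR-32*, 0.982 for miR-672 and 0.947 for miR-206. With array brightness, the unscaled level of miR-466b had r = -0.011 over all 16 arrays and 0.706 over the 8 NHR arrays. For its scaled level the values were -0.299 and 0.367.

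**Figure D4:**
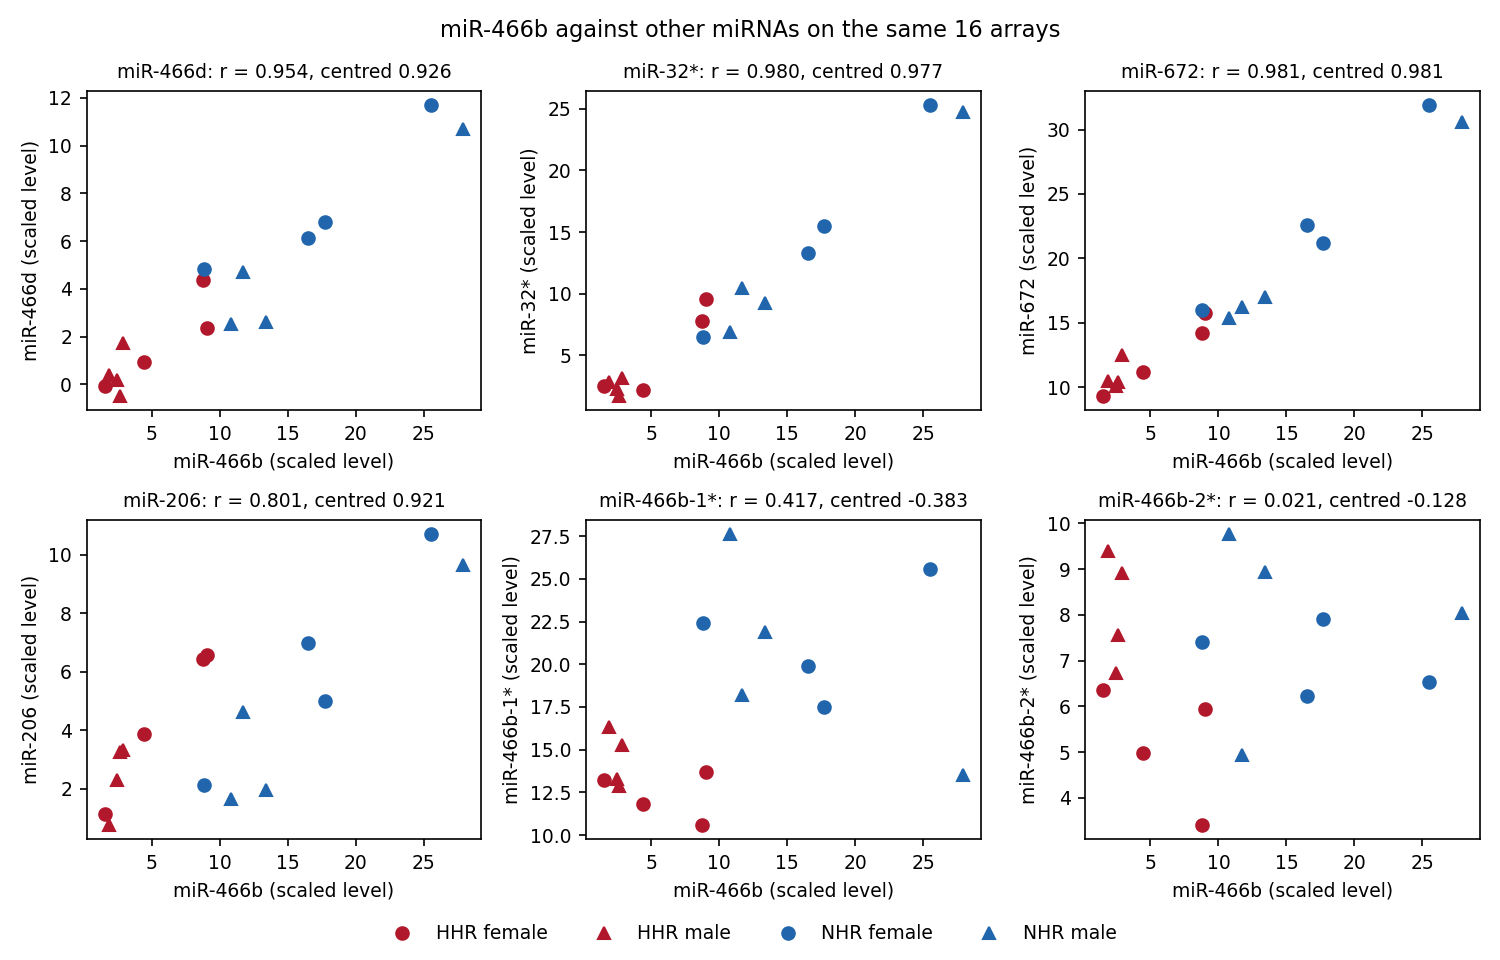
Scaled level of 6 miRNAs (vertical axes) against that of miR-466b (horizontal axes) on the 16 arrays; red is HHR, blue NHR, circles are females and triangles males, and each title gives r over 16 arrays and r after subtracting group means. miR-466d, miR-32* and miR-672 lie along a line through both strains, miR-206 along a separate line in each, and the CA-rich miR-466b-1* and miR-466b-2* along none.

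Sex was tested with limma over all 233 miRNAs, and none was called (0% of 233 at an adjusted p under 0.05; 23 had an unadjusted p under 0.05). None of the 3 tested members was called either. miR-466b was 3.17 ± 1.20 in females and 2.58 ± 1.46 in males on the log2 scale (SD, n = 8 each), a male minus female difference of -0.59 ± 0.33 (SE; limma adjusted p = 0.839; 95% interval -1.31 to 0.13). miR-466b-1* differed by 0.060 ± 0.13 (adjusted p = 0.970; -0.22 to 0.34).

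miR-466b-2* met the minimum of 4 detected arrays for testing with exactly 4, all of them of males (HHR males 2, 3 and 4 and NHR male 2). It therefore entered the sex test through the sex in which it was higher, and its p is given as a description. Its log2 level was 2.57 ± 0.380 in females and 2.98 ± 0.324 in males (SD, n = 8 each). The difference of 0.41 ± 0.15 (SE; 95% interval 0.075 to 0.74) had an unadjusted limma p of 0.0200 and an adjusted p of 0.275. In HHR all 4 males lay above all 4 females, a separation shown by 2.15% of tested miRNAs (5 of 233). In NHR the sexes overlapped.

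The strain difference was also compared between the sexes, as the interaction of strain and sex, and again none of 233 was called by limma (0%; 9 had an unadjusted p under 0.05). For miR-466b the interaction was -0.93 ± 0.67 (SE; adjusted p = 0.929; 95% interval -2.36 to 0.50), for miR-466b-1* 0.33 ± 0.26 (adjusted p = 0.929; -0.22 to 0.89), and for miR-466b-2* 0.55 ± 0.31 (adjusted p = 0.929; -0.12 to 1.21). As miR-466b-2* entered the fit mainly through HHR males, its interaction p is likewise a description. The intervals are wide enough to hold sizeable differences either way for miR-466b.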

How the data were processed

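The authors deposited 1 scanner file per array, in which, per the file headers, spot intensities were read and background-subtracted by Agilent Feature Extraction 10.7.3.1, with the rn4 build named and no scaling between arrays. The detection flags (other values, 0 or 1) were deposited with them. The authors' deposited table of log2 values, for which the submitters' processing notes name limma, served as an alternative; the sources used here do not give its offset, scaling or centring.

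Spots without outlier flags were averaged per probe, arrays were scaled to a common 75th percentile of the 258 probes that were well above background throughout, probes were averaged, and log2 was taken above a floor of 1.88 (log2 0.91, the median of the arrays' dimmest detected miRNA). The 233 miRNAs with the gene-level detection flag on at least 4 arrays were fitted with limma 3.58.1 (R 4.3.3), 1 mean per group, with Benjamini-Hochberg adjustment over all 233; the script was tested on simulated data. Members and lists were chosen with earlier results of these data known. Named miRNAs were all family members, those inside Sfmbt2, those with the seed of a member, detected ones with an alternating repeat of at least 8 bases, the 5 most like miR-466b and the 5 next in detection difference. For these probes normexp used the median spot signal with an offset of 50. The bound averages all 8 NHR arrays, 2 of them not well above background. Replicates are separate pups.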

Additional observations from a re-analysis of the deposited data

Results flagged for a closer look

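In 36 groups checked (6 members, each in 4 groups and 2 strains), 2 had 1 array far from the others, where chance gives about 1 in 20. NHR male 2 had a miR-466b level of 27.9, against 10.8 to 13.4 on the other NHR male arrays. NHR female 2 had a miR-466c level of 1.87, against 0.358 to 0.566 on the other NHR female arrays, all under the floor. The strain difference of miR-466b without NHR male 2 lay in the range given for single arrays left out.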

How the results depend on the processing

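The strain difference of miR-466b stayed negative under all 37 alternatives (-2.27 to -1.89 with each array left out) and was -0.47 with a normexp background, -0.97 with a floor 4 times higher and -0.20 in the authors' table. That of miR-466b-1* (-0.71 to -0.53 with arrays left out) was -0.32 with normexp, -0.34 with a percentile over all probes, -0.28 without scaling and -0.059 in the authors' table. That of miR-466b-2* became 0.41 with the total gene signal and 0.14 without scaling. That of miR-466d was -0.48 with the total gene signal, -0.36 with normexp, -0.14 and -2.49 with a floor 4 times higher and lower, and -0.093 in the authors' table. The effect of the floor follows from its construction. Normexp added an offset of 50 to every spot signal, which by construction shrinks the log2 differences of dim miRNAs. The cause of the others was not tested.

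No member was called by sex or interaction under any alternative (lowest adjusted p 0.0915, for miR-466b-2* by sex, a description as above). The interaction of miR-466b turned to 0.048 with normexp and 0.0030 with the higher floor, that of miR-466b-2* to -0.019 with the higher floor, and the sex value of miR-466b-1* ranged from -0.022 to 0.15 with arrays left out. The count of miRNAs called by sex, 0, was 2 among miRNAs detected on at least 8 arrays and ranged from 0 to 10 with arrays left out. It was 10 without NHR male 1, 3 without HHR male 3, 2 without HHR male 4 and 1 without NHR female 1 or NHR male 4.

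With the gene-level flag miR-466b counted as detected on 2 HHR arrays, miR-466b-2* on 3 HHR and 1 NHR arrays and miR-466d on 2 NHR arrays. Against the 95th percentile of negative controls the counts were 2, 6 and 4, and 3. By Spearman's rho, 3 of the 5 miRNAs most like miR-466b were kept.

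Same-numbered arrays of different groups had correlated residuals from r = -0.22 to 0.53 over 24 pairs (median 0.24, against -0.13 for other pairs), and 6 of 16 arrays were most like one of their own number. The labels name nothing shared by a number, and not every pair was positively correlated, so the numbers were not used as pairs. Every same-numbered pair also shared a slide, as only some of the other pairs did. This comparison does not separate number from slide. With the replicate block, 1 miRNA, no member, was called by sex.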
